A study of Mus musculus with 9 samples.

Results

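The 10 genes of cell cycle exit were followed through muscle differentiation: the CDK inhibitors Cdkn1a (p21), Cdkn1b (p27) and Cdkn2c (p18), the D cyclins Ccnd1, Ccnd2 and Ccnd3, their kinase Cdk4, and the pocket proteins Rb1, Rbl1 (p107) and Rbl2 (p130). They were taken by symbol, mapped from the Ensembl identifiers of the deposited count matrix, and are 10 of its 47729 genes. Each was found in the matrix as 1 gene. The cells were C2C12, an established line of mouse myoblasts (muscle precursor cells), in 3 populations. WT had received CRISPR-Cas9 with a guide RNA that has no target, and the clock genes Per1 and Per2 had been knocked out with the same system in Per1KO and Per2KO. Every population was sampled while growing in medium with 10% fetal bovine serum (day 0) and on days 3 and 5 after a change to 5% horse serum, which starts differentiation. All 9 libraries thus share the line and the editing procedure. The labels name no clone, passage or repeat culture, and they give whole muscle as the tissue beside the C2C12 line. Each population and day had 1 library of polyadenylated RNA. The series title concerns how myoblast differentiation and muscle regeneration depend on circadian phase.

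In a growing myoblast, D cyclins bind Cdk4 and Cdk6, and the active kinases phosphorylate the pocket proteins. Phosphorylated pocket proteins release E2F factors, which transcribe the genes of DNA replication and mitosis. When growth serum is withdrawn, CDK inhibitors block the kinases, pocket proteins stay bound to E2F, and the myoblast leaves the cell cycle for good before it fuses into a myotube. Cdkn1a is a textbook target of p53 and is also induced by the muscle regulators Myod1 and Myog. Ccnd3 is known as the D cyclin that differentiating muscle cells keep, and Rbl1 as the pocket protein of cycling cells.

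Totals were 5020385 to 6773320 counts for WT against 41997763 to 48051824 for the knockouts, and a lane suffix stands in the WT titles alone. Where a comparison includes WT, depth, lane and genotype therefore cannot be told apart. Levels are given as CPM, the count divided by a library size that edgeR's TMM method had adjusted for composition. A count of 0 allows up to 3 counts as a 1-sided 95% limit. That is 0.424 to 0.660 CPM at the depth of WT and 0.0591 to 0.0731 CPM at that of the knockouts. The 2-sided 95% intervals used for levels reach higher at a count of 0, to 0.521 to 0.811 CPM and 0.0726 to 0.08985 CPM. Intervals and these limits cover counting error only, since each population and day had 1 library. The reads carry no molecular identifiers, so the counting error itself may be understated. Per1 stood at 20.9, 32.4 and 28.95 CPM in Per1KO on days 0, 3 and 5, at 16.5, 30.4 and 32.9 CPM in Per2KO and at 35.6, 33.75 and 31.01 CPM in WT. Per2 stood at 3.50, 9.13 and 8.38 CPM in Per2KO, at 6.59, 9.44 and 10.6 CPM in Per1KO and at 9.745, 11.5 and 20.45 CPM in WT. Both transcripts were present in their own knockout, and Per1 on days 0 and 3 was lower in Per2KO than in Per1KO. A CRISPR-Cas9 edit can leave a message in place, so these levels are no check of the labels. Muscle lineage markers summed to 1752 to 12670 CPM, while 4 endothelial, 4 leukocyte and 3 adipocyte markers summed to at most 0.433, 0.880 and 0.0591 CPM in any library, and 3 Schwann cell markers to at most 1.69 CPM. The 3 markers of muscle fibroblasts, Pdgfra, Dpt and Pi16, summed to 26.0, 115 and 198 CPM in WT on days 0, 3 and 5 and to 8.25 to 16.8 CPM in the 6 knockout libraries. Of these markers, 1 was called higher by day 5, beside 23.2% of all genes tested. Adgre1, Cd3e, Adipoq and Cidec were at 0 in all 9 libraries.

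Changes over differentiation were tested with edgeR's quasi-likelihood test on 13324 genes, with Benjamini-Hochberg adjustment over all of them and a threshold of 0.05, and every adjusted p below comes from that test unless another is named. The fit had additive terms for genotype and day, so the 3 populations stand in for replicates of a day. All 10 genes passed the filter on low counts. A p-value speaks of these populations and not of independent cultures or clones. In RNA from a whole culture, fewer cells of a type and less RNA per cell cannot be told apart.

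By day 3, 5 of the 10 genes had risen (Cdkn1a, Cdkn1b, Ccnd3, Rb1 and Rbl2) and 3 had fallen (Ccnd1, Rbl1 and Cdk4), where 18.1% of all genes tested rose and 16.9% fell. The median change of the 10 was 0.06 on the log2 scale, beside -0.01 over all genes. By day 5, 4 stood higher than on day 0 (Cdkn1a, Ccnd3, Rb1 and Rbl2) and 4 lower (Ccnd1, Rbl1, Cdk4 and Cdkn2c), beside 23.2% and 22.9% of all genes, with medians of -0.15 and -0.01. The day 3 calls varied with the population left out: without the Per1KO libraries Cdkn1a was the only one left, without the Per2KO libraries Cdkn1a, Ccnd3, Ccnd1 and Rbl1 were left, and without the WT libraries 9 genes were called. The day 5 calls of Cdkn2c and Rbl2 were lost without either knockout, and the other 6 held in every alternative that was run. The shares of all genes called in these alternative fits are not given here. The lost and gained calls therefore cannot be read as particular to these genes.

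**Figure D1:**
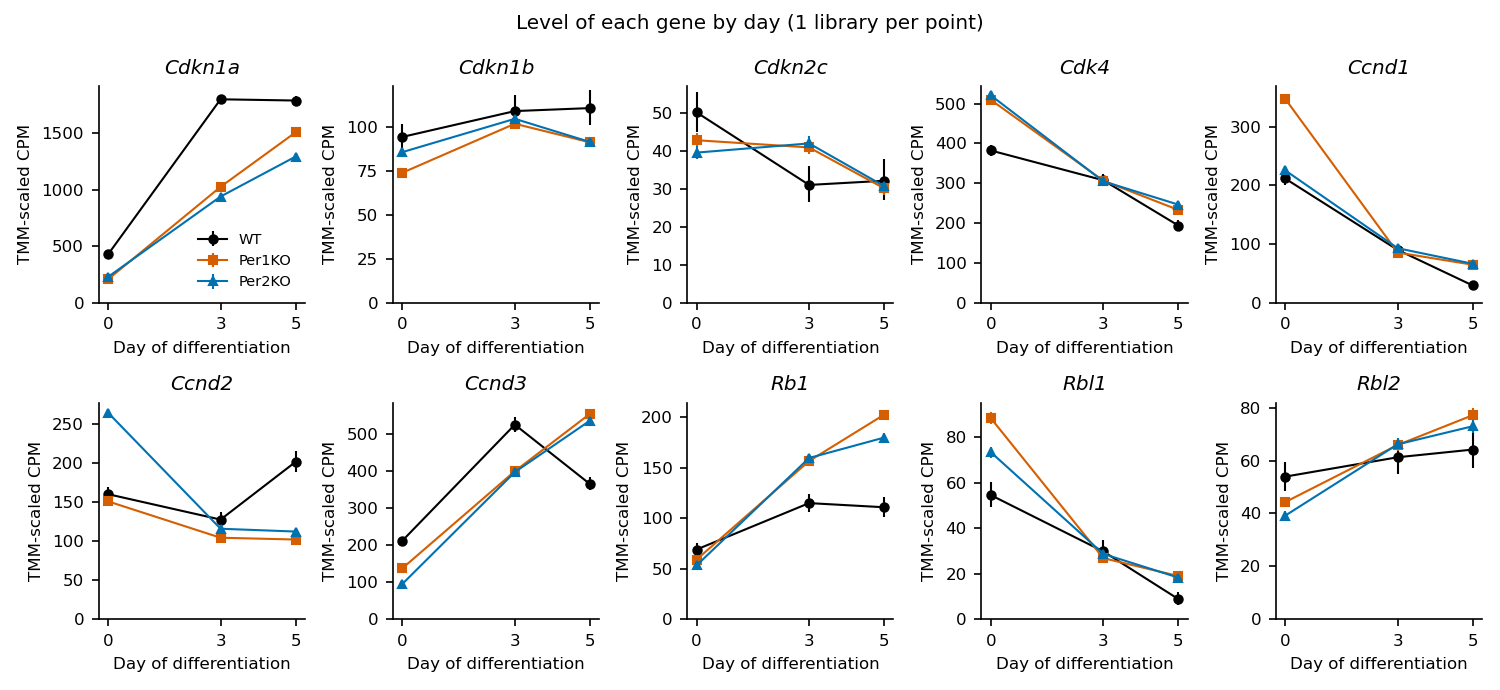
TMM-scaled CPM (vertical axes, linear, from 0) of each gene on days 0, 3 and 5 (horizontal axes) in WT (black circles), Per1KO (orange squares) and Per2KO (blue triangles), with 1 library per point and exact Poisson 95% intervals of the count as bars. Cdkn1a, Ccnd3 and Rb1 rise from day 0 while Ccnd1, Rbl1 and Cdk4 fall, and WT lies above both knockouts on every day for Cdkn1a.

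Cdkn1a encodes p21, the inhibitor of cyclin-dependent kinases that marks cell cycle exit of muscle precursors (ENSMUSG00000023067, GRCm38 chromosome 17, 29090976 to 29100727, plus strand). It stood at 427, 1802 and 1791 CPM in WT on days 0, 3 and 5. In Per1KO it stood at 206, 1026 and 1509 CPM, and in Per2KO at 228, 939.8 and 1294 CPM. All 6 differentiating libraries lay above all 3 growing ones, and in WT the level on day 5 was no higher than on day 3, while in both knockouts it was. The rise was 4.41-fold by day 3 (log2 2.14 ± 0.17 SE, adjusted p = 0.000165) and 5.61-fold by day 5 (log2 2.49 ± 0.18, adjusted p = 3.67e-05). Both calls held under every alternative run. A non-coding transcript on the other strand, AC167363.2, shares 7.68% of the gene's exonic bases, and whether the counting used strand is not given in the sources used here.

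RefSeq lists 2 start sites for Cdkn1a on GRCm38.p6, and the upstream promoter is shown because it holds letters of known Cdkn1a regulators. The window runs from 250 bases before to 50 after the start (chr17:29090729-29091028, plus strand). Capitals mark 2 copies of CATG with 6 bases between them, the core letters of a p53 response element, and further on CAGCTG, an E-box of the kind bound by muscle regulators.

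Cdkn1a promoter, upstream start: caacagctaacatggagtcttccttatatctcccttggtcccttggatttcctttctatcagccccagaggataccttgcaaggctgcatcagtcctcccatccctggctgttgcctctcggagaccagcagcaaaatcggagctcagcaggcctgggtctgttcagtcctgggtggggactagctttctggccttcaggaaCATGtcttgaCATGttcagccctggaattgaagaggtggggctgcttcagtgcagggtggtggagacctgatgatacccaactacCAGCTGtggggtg

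The paired CATG starts at position -48 from the transcription start and occurs in 0.712% of the 32851 mouse promoters in the RefSeq table, and CAGCTG in 16.3%, both strands searched. The marked matches do not overlap each other, and the downstream promoter held none of the 4 motifs searched. A match describes the letters and is not evidence of binding in these cells. Trp53, which encodes p53, fell by 0.99 on the log2 scale by day 5 (SE 0.11, adjusted p = 0.000328), and Myog, the regulator that drives the final steps of myotube formation, rose by 4.99 (SE 0.78, adjusted p = 0.00178). Among 6 regulators of Cdkn1a (Trp53, Mdm2, Myod1, Myog, Foxo1 and Foxo3), 4 rose and 1 fell by day 5, with a median of 0.81, where 23.2% of all genes rose and 22.9% fell.

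Cdkn1b encodes p27, an inhibitor controlled largely through protein turnover (ENSMUSG00000003031, chromosome 6, 134920401 to 134925513, plus strand). Its level was 94.2, 109 and 111 CPM in WT, 73.8, 102 and 91.1 CPM in Per1KO and 85.55, 104.5 and 91.3 CPM in Per2KO. It was the steadiest of the 10 genes, with all libraries between 73.8 and 111 CPM. The day 3 libraries all lay above the day 0 libraries, by 0.32 ± 0.11 on the log2 scale (adjusted p = 0.0486), and on day 5 the ranges overlapped (0.21 ± 0.11, adjusted p = 0.143). That day 3 call was lost with DESeq2-type size factors (0.31, adjusted p = 0.0509), with library totals as the only scaling (0.21, adjusted p = 0.156), with no filter on low counts (0.32, adjusted p = 0.111), without either knockout, and when only the libraries of days 0 and 3 were fitted (0.33, adjusted p = 0.137). Of 4 genes that act in the turnover of p27 and the D cyclins, 2 fell by day 5 and 0 rose, beside 22.9% and 23.2% of all genes, and Cks1b, a cofactor of the ligase that marks p27 for destruction, fell by 2.52 (SE 0.19, adjusted p = 4.91e-05).

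Cdkn2c encodes p18, an INK4 inhibitor that binds Cdk4 and Cdk6 directly (ENSMUSG00000028551, chromosome 4, 109660876 to 109667189, minus strand). It stood at 50.1, 31.01 and 32.1 CPM in WT, 42.8, 40.9 and 30.1 CPM in Per1KO and 39.5, 41.95 and 30.7 CPM in Per2KO. The WT library was already at its later level on day 3, while both knockouts were still near their day 0 level. The difference on day 3 was -0.20 ± 0.16 (adjusted p = 0.354), and by day 5, when all 3 libraries lay below the day 0 range, the gene had fallen by 0.51 ± 0.16 (adjusted p = 0.0313).

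The 4 other CDK inhibitors reached at most 33.2 CPM in any library. Cdkn2a and Cdkn2b, neighbouring INK4 genes, had 0 of 292140191 counts over the 9 libraries. Cdkn1c, the gene of p57, stood at 0.565, 18.6 and 1.54 CPM in WT (4, 102 and 7 counts) and at 0.0203 to 0.197 CPM in the knockouts (1 to 10 counts). It stood clear of its other libraries in 1 library, WT day 3, was below the filter and was not tested. Of its 31-base words, 28.4% also occur in another gene, most often in Gm44732. That gene lies on the other strand over 30.7% of the exonic bases of Cdkn1c. Cdkn2d, the gene of the INK4 inhibitor p19, stood at 32.2, 29.2 and 16.5 CPM in WT, 33.2, 23.5 and 20.3 CPM in Per1KO and 25.8, 22.3 and 17.7 CPM in Per2KO, and by day 5 it had fallen by 0.72 ± 0.15 (adjusted p = 0.00536).

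Cdk4 is the catalytic partner of the D cyclins (ENSMUSG00000006728, chromosome 10, 127063534 to 127067920, plus strand). It stood at 382, 307 and 193.5 CPM in WT, 509, 306 and 233 CPM in Per1KO and 520.4, 304.5 and 246 CPM in Per2KO. The 3 populations met within 3 CPM of each other on day 3 after starting apart, and each day's range lay below that of the day before. Cdk4 fell by 0.61 ± 0.13 by day 3 (adjusted p = 0.00971) and by 1.07 ± 0.13 by day 5 (adjusted p = 0.000473). Tspan31 lies on the other strand over 19.7% of the exonic bases of Cdk4, stood at 76.7 to 108 CPM, and had day 5 change -0.16. The Cdk4 promoter (chr10:127063285-127063584, plus strand) is shown for its 4 copies of CACGTG, the E-box bound by Myc and by the clock factors Clock and Bmal1, in capitals.

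Cdk4 promoter: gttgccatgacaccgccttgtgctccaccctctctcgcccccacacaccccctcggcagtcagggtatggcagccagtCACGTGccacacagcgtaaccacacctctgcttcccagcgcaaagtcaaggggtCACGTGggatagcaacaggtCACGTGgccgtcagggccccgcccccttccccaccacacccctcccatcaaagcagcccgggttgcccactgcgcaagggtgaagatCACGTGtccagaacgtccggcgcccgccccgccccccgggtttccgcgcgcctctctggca

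CACGTG occurs in 7.15% of the promoters in the table, and 4 or more copies in 8 of them (0.0244%). Of the other genes here with a promoter entry, Cdkn2c had 1 copy, at its second start site, and Cdkn1a, Cdkn1b, Ccnd3, Rbl1 and Rbl2 had 0. Ccnd1, Ccnd2 and Rb1 had no entry.

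Ccnd1, the D cyclin most tied to growth factor signals, had the largest fitted fall of the 10, close to that of Rbl1 (ENSMUSG00000070348, chromosome 7, 144929931 to 144939925, minus strand). It stood at 212, 89.9 and 29.2 CPM in WT, 348, 85.4 and 64.6 CPM in Per1KO and 226, 92.8 and 66.3 CPM in Per2KO. Every differentiating library lay below every growing one, and on day 5 WT was lower than both knockouts. The fall was 2.85-fold by day 3 (log2 -1.51 ± 0.25, adjusted p = 0.00333) and 4.95-fold by day 5 (log2 -2.31 ± 0.26, adjusted p = 0.000308). LTO1 on the other strand covers 23.4% of the exonic bases of Ccnd1, stood at 10.9 to 28.8 CPM and had a day 5 change of 1.10, opposite in sign to that of Ccnd1.

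Ccnd2, a D cyclin of proliferating precursors (ENSMUSG00000000184, chromosome 6, 127125162 to 127152193, minus strand), did not follow 1 course. It stood at 160, 127 and 201 CPM in WT, 150.5, 104 and 102 CPM in Per1KO and 264, 115.5 and 112 CPM in Per2KO. On day 5 WT was above its own day 0 level and both knockouts were below theirs. The fitted differences were -0.72 ± 0.26 on day 3 (adjusted p = 0.0648) and -0.50 ± 0.26 on day 5 (adjusted p = 0.151). Without WT the 2 knockouts gave -0.88 on day 3 (adjusted p = 0.00535) and -0.92 on day 5 (adjusted p = 0.00375). DESeq2 (-0.73, adjusted p = 0.0256) and scaling by library totals (-0.83, adjusted p = 0.0359) also put the day 3 difference past the threshold.

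Ccnd3, the D cyclin retained in muscle cells, moved against Ccnd1 (ENSMUSG00000034165, chromosome 17, 47505051 to 47599691, plus strand). It stood at 211, 524 and 364 CPM in WT, 137, 399 and 553 CPM in Per1KO and 94.6, 396 and 535 CPM in Per2KO. All 6 differentiating libraries lay above all growing ones, with the highest WT level on day 3 and the highest level of both knockouts on day 5. It rose by 1.61 ± 0.29 by day 3 (adjusted p = 0.00489) and by 1.79 ± 0.30 by day 5 (adjusted p = 0.00207). Bysl on the other strand covers 4.11% of its exonic bases, and 5.83% of its 31-base words also occur in another gene, most often in the pseudogene Ccnd3-ps.

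Rb1 encodes the retinoblastoma protein, which holds differentiated muscle cells out of the cycle (ENSMUSG00000022105, chromosome 14, 73183673 to 73325822, minus strand). It stood at 68.9, 115 and 111 CPM in WT, 59.0, 157 and 202.5 CPM in Per1KO and 53.2, 160 and 180 CPM in Per2KO. All differentiating libraries lay above all growing ones, and on days 3 and 5 both knockouts lay above WT. The rise was 1.23 ± 0.22 by day 3 (adjusted p = 0.00425) and 1.41 ± 0.22 by day 5 (adjusted p = 0.00145). The genes Rcbtb2 and Lpar6, on the other strand, share 8.11% and 6.78% of its exonic bases, with day 5 changes of -0.05 and -0.75.

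Rbl1, which encodes p107, fell in step with Ccnd1 (ENSMUSG00000027641, chromosome 2, 157145893 to 157204534, minus strand). It stood at 54.5, 29.7 and 8.80 CPM in WT, 88.4, 26.8 and 18.9 CPM in Per1KO and 73.4, 28.7 and 18.2 CPM in Per2KO. The day 3 libraries lay close together, and the WT library of day 5 was the lowest of all, with 40 counts. Rbl1 fell by 1.33 ± 0.22 by day 3 (adjusted p = 0.00303) and fell by 2.21 ± 0.22 by day 5 (adjusted p = 0.000178). No 31-base word of Rbl1 occurs in another gene. Its promoter (chr2:157204485-157204784, minus strand) is shown because Rbl1 is a known E2F target. Capitals mark TTTCGCGC, an E2F-type motif that starts at position -18 from the transcription start, and CAGCTG further upstream.

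Rbl1 promoter: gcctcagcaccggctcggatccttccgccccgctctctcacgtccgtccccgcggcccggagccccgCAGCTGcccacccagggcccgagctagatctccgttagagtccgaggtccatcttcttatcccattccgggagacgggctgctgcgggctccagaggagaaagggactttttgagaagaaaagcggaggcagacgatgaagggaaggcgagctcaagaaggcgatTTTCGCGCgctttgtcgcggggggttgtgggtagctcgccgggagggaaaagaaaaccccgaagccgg

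The E2F-type letters searched were TTTCGCGC, TTTGGCGC, TTTCCCGC and TTTGCCGC on either strand, which 2.27% of promoters in the table hold. The marked motifs do not overlap. Among the 7 genes with a promoter entry, Rbl1 was the only one with these letters in the window.

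Rbl2 encodes p130, the pocket protein of resting cells (ENSMUSG00000031666, chromosome 8, 91070057 to 91123844, plus strand). It stood at 53.9, 61.3 and 64.2 CPM in WT, 44.3, 65.9 and 77.2 CPM in Per1KO and 39.2, 66.2 and 73.0 CPM in Per2KO. All differentiating libraries lay above all growing ones, by small steps in WT. It rose by 0.51 ± 0.15 by day 3 (adjusted p = 0.0313) and by 0.66 ± 0.15 by day 5 (adjusted p = 0.00803). The day 3 call was lost with library totals as the scaling (0.40, adjusted p = 0.0781), which shifts the median of all genes by -0.11, and when only the libraries of days 0 and 3 were fitted (0.52, adjusted p = 0.0732). Aktip on the other strand covers 9.17% of its exonic bases, stood at 26.3 to 65.5 CPM and had a day 5 change of 1.03, in the direction of Rbl2. Gm45464, also on the other strand, covers 11.8%, and no level is given for it here.

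**Figure D2:**
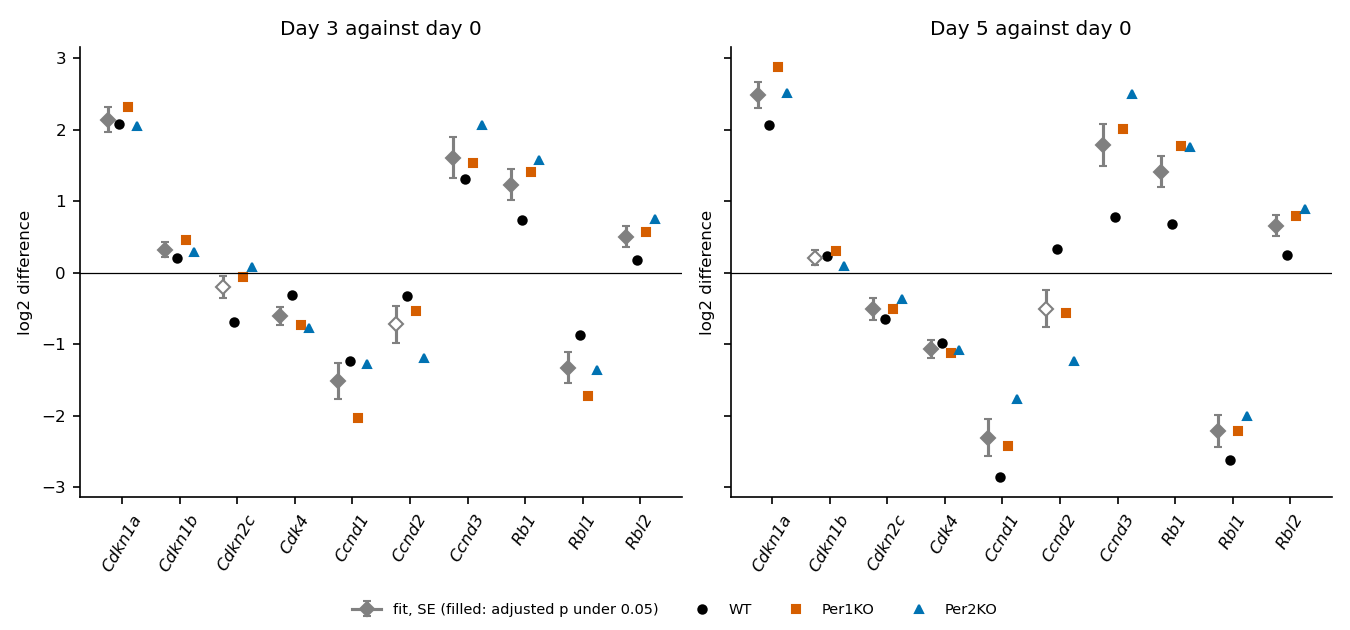
Difference from day 0 on the log2 scale (vertical axis) on day 3 (left) and day 5 (right) for each gene: the fitted value with its SE (grey diamond, filled where the adjusted p is under 0.05) and the difference within each population (WT circle, Per1KO square, Per2KO triangle). The populations share a sign for 9 genes on day 3, with Cdkn2c the exception, and for 9 on day 5, with Ccnd2 the exception.

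Between days 3 and 5, 0 of the 10 genes passed edgeR's test, where 1.79% of all genes did. At an unadjusted p under 0.05, 944 of all 13324 genes were higher and 1031 lower. Of the 10 genes 3 reached it, each with a negative difference: Rbl1 (-0.89 ± 0.22, adjusted p = 0.111), Cdk4 (-0.46 ± 0.13, adjusted p = 0.146) and Ccnd1 (-0.80 ± 0.25, adjusted p = 0.193). DESeq2 called 2 of these, Rbl1 (-0.90, adjusted p = 0.00921) and Cdk4 (-0.45, adjusted p = 0.0331). Without the WT libraries edgeR called 4 genes: Rbl1 (-0.58, adjusted p = 0.03), Cdk4 (-0.35, adjusted p = 0.0349), Cdkn2c (-0.44, adjusted p = 0.0339) and Cdkn1a (0.51, adjusted p = 0.0345). The shares of all genes called by DESeq2 and without WT are not given here. In the main fit the other 7 genes had differences from -0.31 to 0.35.

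Levels per kilobase of exon allow a rough comparison between genes, since they depend on the length chosen for each gene. By exonic length, Cdk4 led the 10 genes in the growing knockouts with 157 and 160.2 CPM per kilobase. Cdkn1a and Cdk4 were near level in growing WT cells at 120.2 and 118. On day 5 Cdkn1a led in all 3 populations, at 504, 425 and 364 CPM per kilobase in WT, Per1KO and Per2KO. By exonic length Cdk4 came next at 59.6, 71.6 and 75.7, and then Ccnd3 at 41.5, 63.0 and 60.95. The exonic lengths were 3249 bases for Cdk4 and 8775 for Ccnd3, but their longest transcripts have 2053 and 3858. The order of Cdk4 and Ccnd3 therefore depends on the length chosen and is not settled. Rbl1 was last on day 5, at 1.47, 3.16 and 3.04 CPM per kilobase. On day 0 Rbl2 was last in every population, at 7.14, 5.86 and 5.18. Growing Per1KO cells had Cdkn1b, Ccnd2, Cdkn2c and Ccnd3 between 15.6 and 16.2 CPM per kilobase, a spread too small for an order of these genes, since the length chosen for a gene moves such values.

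The largest member changed between days 0 and 5 among the D cyclins in all 3 populations and among the pocket proteins in both knockouts, and stayed Cdkn1a among the CDK inhibitors. A share here is the percentage of the family's reads per kilobase in a library. In WT, Per1KO and Per2KO, Ccnd1 held 52.3%, 70.1% and 55.3% of the D cyclin reads on day 0, but 8.99%, 15.7% and 16.2% on day 5. Ccnd3 went from 28.0%, 14.8% and 12.4% to 60.1%, 71.98% and 70.1%. WT stood apart on day 5 through Ccnd2, which held 30.9% there beside 12.3% in Per1KO and 13.7% in Per2KO. Among the pocket proteins, Rbl1 went from 32.9%, 48.5% and 46.6% on day 0 to 5.17%, 6.72% and 7.14% on day 5, and Rb1 from 41.4%, 32.2% and 33.7% to 64.9%, 71.6% and 70.2%. Rbl2 held between 19.3% and 29.9% in every library. Cdkn1a was already the largest of the 3 inhibitors on day 0 at 75.3%, 64.3% and 65.6%, and reached 93.3%, 93.2% and 92.0%. Using the longest transcript as the length moved a share by up to 12.1 percentage points, and put Ccnd1 and Ccnd3 almost level in WT on day 0, at 41.5% and 40.1%.

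**Figure D3:**
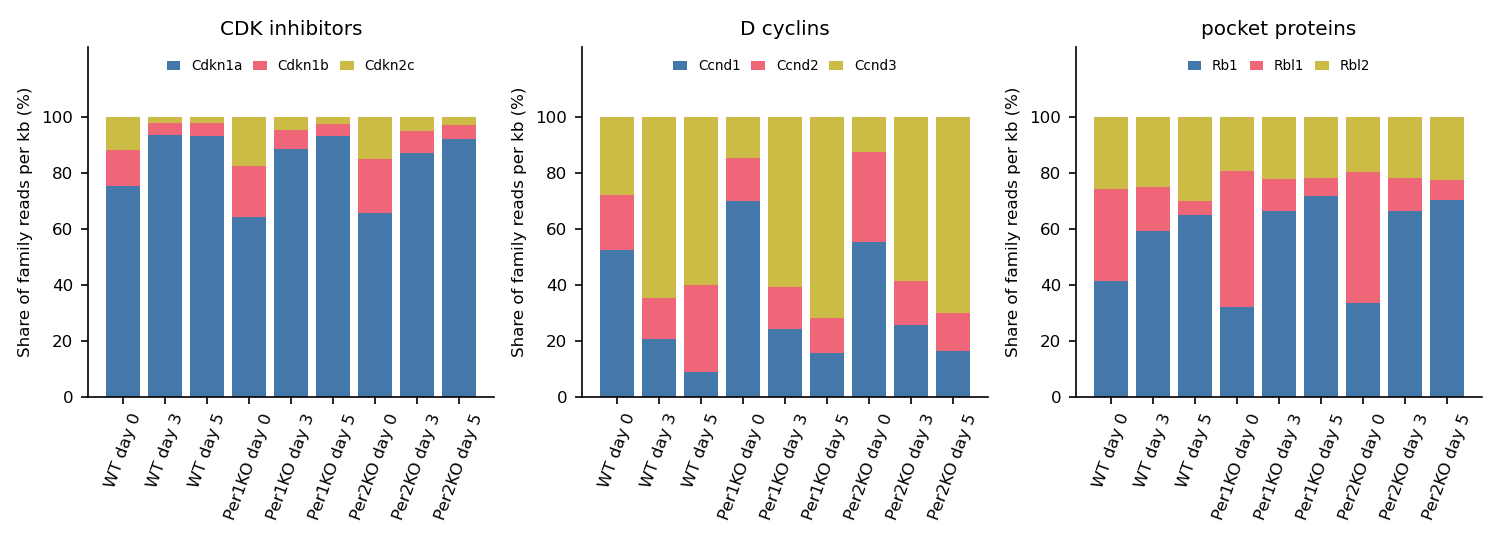
Share of each family's reads per kilobase (vertical axis, percent, stacked to 100) held by each gene in the 9 libraries (horizontal axis) for the CDK inhibitors, D cyclins and pocket proteins. Ccnd3 replaces Ccnd1 as the largest D cyclin in all 3 populations, Rb1 replaces Rbl1 as the largest pocket protein in both knockouts, and Ccnd2 holds 30.9% of the D cyclins in WT on day 5.

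Ratios inside a library do not depend on how libraries are scaled, and their change over days does not depend on gene length. Cdkn1a stood to Cdk4, per kilobase, at 1.02, 5.36 and 8.46 in WT on days 0, 3 and 5, at 0.370, 3.07 and 5.93 in Per1KO and at 0.400, 2.82 and 4.81 in Per2KO. By this measure of length the inhibitor began near parity with the kinase in WT and below it in both knockouts, and in each population it ended above. From day 0 to day 5 that ratio grew 8.28-fold in WT, 16.0-fold in Per1KO and 12.04-fold in Per2KO. Ccnd3 stood to Ccnd1 at 0.535, 3.13 and 6.68 in WT, 0.211, 2.50 and 4.59 in Per1KO and 0.225, 2.29 and 4.33 in Per2KO, a growth of 12.5-fold, 21.8-fold and 19.3-fold. Rb1 stood to Rbl1 at 1.26, 3.85 and 12.6 in WT, 0.665, 5.82 and 10.7 in Per1KO and 0.722, 5.55 and 9.82 in Per2KO. The exact 95% interval of the day 5 WT ratio of Rb1 to Rbl1, 9.09 to 17.8 (Clopper-Pearson), covers both knockout values. These ratios come from single libraries and have no replicate check.

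**Figure D4:**
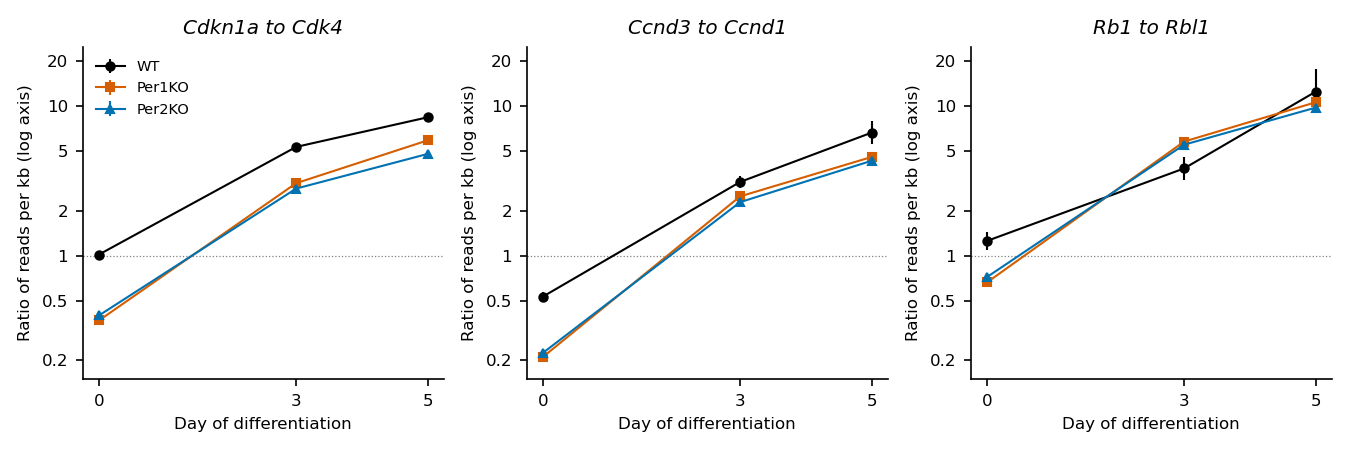
Ratio of reads per kilobase (vertical axes, log scale) of Cdkn1a to Cdk4, Ccnd3 to Ccnd1 and Rb1 to Rbl1 on days 0, 3 and 5 (horizontal axes), 1 library per point, with exact 95% intervals and a dotted line at 1. All 9 lines rise, and WT starts above both knockouts in each panel, for example at 1.02 beside 0.370 and 0.400 for Cdkn1a to Cdk4.

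Lists of other genes of the pathway were read against 22.9% of all genes lower and 23.2% higher by day 5. Of 7 E2F targets of proliferating cells, 7 fell by day 5 (6 by day 3), with a median of -2.63, beside -0.01 over all genes; the largest fall was that of Top2a, the topoisomerase of dividing cells, at -2.83 ± 0.16 (adjusted p = 1.49e-05). Of 8 partner kinases and later cyclins, 7 fell and 1 rose. Ccnb1, the mitotic cyclin B1, fell by 2.99 (SE 0.17, adjusted p = 1.55e-05), while Cdk2, the kinase of S phase entry, rose by 0.66 (SE 0.18, adjusted p = 0.0176). Of 10 E2F and DP factors, 6 fell and 2 rose. E2f7, a repressor made in cycling cells, fell by 2.63 (SE 0.25, adjusted p = 0.000145), and Tfdp2, a dimer partner of E2F, rose by 0.50 (SE 0.14, adjusted p = 0.0189). Of 7 genes of the MuvB complex and its partners, 4 fell and 0 rose, led by Mybl2, which encodes B-Myb, at -3.28 ± 0.25 (adjusted p = 4.56e-05).

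Among genes that averaged 10 CPM or more, those whose log2 CPM followed Cdkn1a most closely over the 9 libraries were Tspan32 (r = 0.999), Pygm (0.996) and Tspan3 (0.996), with Tspan32 at 3.43 to 58.9 CPM. For Ccnd1 they were Clspn (0.997), Chaf1a (0.997) and Mms22l (0.996), and for Rbl1 they were Rpa1 (0.997), Mcm6 (0.997) and Mcm10 (0.996). These are Pearson correlations over 9 libraries that share the same days and populations, and they carry no p-value. Among the 10 genes themselves, Ccnd1 and Rbl1 were most alike (r = 0.993), followed by Rbl1 and Cdk4 (0.983) and by Ccnd1 and Cdk4 (0.965). Ccnd3 followed Rbl2 (0.963), and Rb1 followed Rbl2 (0.959).

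Between the knockouts and WT, Cdkn1a was the only one of the 10 genes to pass the test, and it was lower in both. In Per1KO it was 2.07-fold lower than WT on day 0, 1.76-fold on day 3 and 1.19-fold on day 5. In Per2KO it was 1.88-fold lower on day 0, 1.92-fold on day 3 and 1.38-fold on day 5. All 6 knockout libraries lay below the WT library of their day, with the smallest gap on day 5. Over the 3 days Cdkn1a was lower by 0.71 ± 0.17 on the log2 scale in Per1KO (log2 -0.71, adjusted p = 0.0243) and by 0.78 ± 0.17 in Per2KO (log2 -0.78, adjusted p = 0.0156), where 10.1% and 10.6% of all genes were lower. A count of 1 lower in 10 genes is near those shares, and 0 of the 10 were called higher. Over all 13324 genes, 1234 were called higher in Per1KO and 1241 in Per2KO. These 2 comparisons share their WT libraries, so they are not independent of each other. The calls were lost when only the libraries compared were fitted (adjusted p = 0.0998 for Per1KO and 0.0603 for Per2KO) and without day 3 (adjusted p = 0.162 and 0.155), and that of Per1KO also without day 0 (-0.55, adjusted p = 0.0883).

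Of 7 muscle lineage markers, 1, Myog, was called lower in both knockouts, and of 5 adult muscle fibre markers 0 were called. Over all genes, 10.1% were lower in Per1KO and 10.6% in Per2KO. At an unadjusted edgeR p under 0.05, 2445 of all 13324 genes were lower in Per1KO and 2460 in Per2KO. At that threshold 3 lineage markers were lower in Per1KO and 4 in Per2KO. For the fibre markers these counts were 1 and 3. Of the 5, 0 had a positive difference in either knockout, where 6500 and 6538 of all 13324 genes did. Myog was lower in Per1KO by 2.80 on the log2 scale (log2 -2.80, SE 0.72, adjusted p = 0.0325) and in Per2KO by 3.18 (log2 -3.18, SE 0.73, adjusted p = 0.0217). These are averages over the 3 days, and the gap was not constant. It was wider on day 0 than during differentiation (edgeR interaction 3.14, adjusted p = 0.00359), with the day 0 levels given below. The summed level of the 5 fibre markers was 218, 8339 and 7764 CPM in WT, 9.92, 3114 and 5695 CPM in Per1KO and 3.33, 2658 and 4298 CPM in Per2KO. The muscle fibroblast markers Pdgfra, Dpt and Pi16, whose sums are given above, were all 3 called lower in both knockouts. The part of these values in the level of Cdkn1a was not tested.

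The other 9 genes had fitted differences from WT of -0.49 (Ccnd2) to 0.56 (Ccnd1) in Per1KO and -0.36 (Ccnd3) to 0.41 (Rbl1) in Per2KO. Cdkn1b lay below WT in both knockouts on all 3 days, and none of the other 8 lay on 1 side of WT in both knockouts on all 3 days. Day 0 and day 5 pointed opposite ways for some: Rb1 and Rbl2 lay below WT in both knockouts on day 0 and above it on days 3 and 5, and Ccnd3 lay below on days 0 and 3 and above on day 5. Rbl1 and Cdk4 lay above WT on days 0 and 5 and below it on day 3. On day 3, however, the knockout values of Rbl1, Cdk4, Cdkn1b and Rbl2 all lay inside the 95% counting interval of the WT library. For Cdk4 that interval was 293 to 322 CPM, beside 306 and 304.5 CPM in the knockouts. The side of WT on which these genes lay on day 3 is therefore not settled by the counts. Without day 0, Rb1 passed the test in both knockouts (0.64, adjusted p = 0.0275 in Per1KO, and 0.57, adjusted p = 0.0348 in Per2KO).

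**Figure D5:**
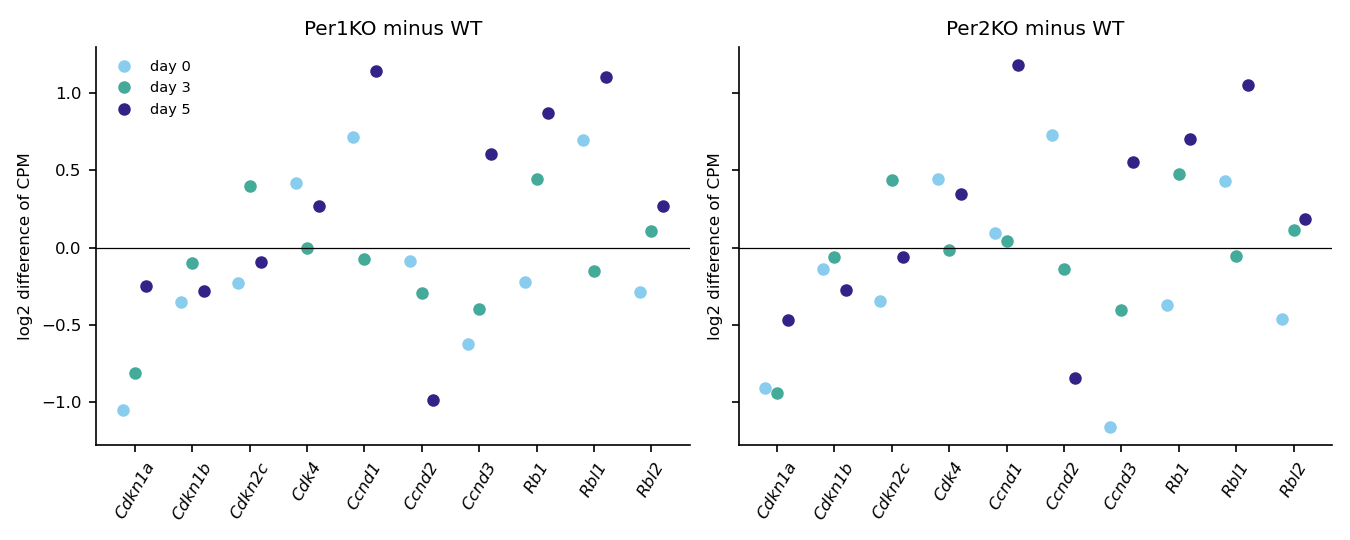
Difference from the WT library of the same day in log2 CPM (vertical axis) for each gene in Per1KO (left) and Per2KO (right) on days 0, 3 and 5 (light blue, green and dark blue), 1 library against 1. Cdkn1a lies below 0 at all 6 points, and the points of Rb1 move from below 0 on day 0 to above it on day 5.

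Whether differentiation itself had a different size in the knockouts was tested with 1 term shared by both knockouts on days 3 and 5, in a fit with 3 residual degrees of freedom. Rb1 was the only one of the 10 past the threshold: its rise was larger in the knockouts by 0.92 ± 0.19 on the log2 scale (adjusted p = 0.0438), where 3.50% of all genes had a higher response. From day 0 to day 5 Rb1 rose 1.61-fold in WT, 3.43-fold in Per1KO and 3.38-fold in Per2KO. The call was lost without the Per1KO libraries (0.96, adjusted p = 0.163) and without the Per2KO libraries (0.88, adjusted p = 0.319). A further 3 genes had an unadjusted p under 0.05 and did not pass. At that threshold 1699 of all 13324 genes had a higher response and 1431 a lower one. The 3 genes were Ccnd3 (0.95 ± 0.39, adjusted p = 0.199), Ccnd2 (-0.91 ± 0.35, adjusted p = 0.177) and Rbl2 (0.54 ± 0.17, adjusted p = 0.118). Ccnd3 passed without day 3 (1.46, adjusted p = 0.044). Myog also had a larger response in the knockouts (3.14 ± 0.25, adjusted p = 0.00359), from a day 0 level of 124 CPM in WT, 5.35 CPM in Per1KO and 2.91 CPM in Per2KO.

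Per1KO and Per2KO were not distinguished in these genes. By edgeR 0 of the 10 passed, 0 had an unadjusted p under 0.05, and DESeq2 called 0. Over all genes 0% passed, with 54 higher and 34 lower in Per1KO at an unadjusted p under 0.05. The fitted differences ran from -0.40 (Ccnd2, SE 0.26) to 0.17 (Ccnd3, SE 0.28). As a ratio, the widest gap between 2 single libraries of 1 day was that of Ccnd2 on day 0, 150.5 CPM in Per1KO and 264 CPM in Per2KO, and by day 3 it stood at 104 and 115.5 CPM.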

How the data were processed

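RNA was measured in 9 C2C12 libraries, 1 for each genotype (WT, Per1KO, Per2KO) and day (0, 3, 5). The authors deposited whole-number read counts per Ensembl gene. Per the submitters' processing notes, CASAVA 1.8, HISAT2 2.1.0 and build mm10 were used. The counting program, annotation, strand setting and treatment of reads that match several genes are not given in the sources used here. Per the labels, libraries were made with a TruSeq kit and read from 1 end.

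Each value column matched the title of 1 sample, and 0 lines named no gene. Symbols matched 47224 of 47729 identifiers. Positions, exonic lengths and shared 31-base words were taken from GENCODE M21 on GRCm38, promoters from RefSeq. A gene needed 1 CPM or more in 3 or more libraries, which 13324 reached, and was tested with edgeR 4.0.16 (limma 3.58.1, R 4.3.3), TMM scaling, robust quasi-likelihood fits and Benjamini-Hochberg adjustment. The additive fit had 4 residual degrees of freedom and the interaction fit 3. SE values were computed from each fold change and its F statistic. Differences between single libraries used log2 CPM with a prior count of 2. The code was tested on simulated data.

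Alternatives were DESeq2 1.42.0, its size factors in edgeR, library totals, no filter, a filter of 10 CPM, leaving out a population or day, and fitting only the libraries compared. Named were the 10 genes, the other CDK inhibitors, the called gene with the largest rise and fall by day 5 in each pathway list, and the 3 genes most like Cdkn1a, Ccnd1 and Rbl1. The genes, lists and tests were chosen with earlier results of these data known.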

Additional observations from a re-analysis of the deposited data

Results flagged for a closer look

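The response of Rb1 to differentiation differed between the knockouts and WT by a test of the difference itself: 0.92 on the log2 scale (SE 0.19, edgeR adjusted p = 0.0438). Rb1 went from 68.9 to 111 CPM in WT between days 0 and 5, from 59.0 to 202.5 CPM in Per1KO and from 53.2 to 180 CPM in Per2KO. WT rests on 1 library a day, and depth and genotype cannot be told apart in it.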

How the results depend on the processing

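Leaving out a population or a day moved the counts most. The number of the 10 genes called ranged from 1 (without Per1KO) to 9 (without WT) on day 3 against day 0, from 6 to 9 on day 5 against day 0, from 0 to 4 on day 5 against day 3, from 0 to 1 for Per1KO against WT, from 0 to 2 for Per2KO against WT and from 0 to 2 for the interaction. On day 5 against day 3, DESeq2 called 2 and the fit with no filter 1. Fitting only the libraries compared left 0 for Per1KO against WT and 0 for Per2KO against WT. The shares of all genes called in these fits are not given here, so whether the moves are particular to the 10 genes cannot be told. The cause of these moves was not tested. A set of 29 differences held those of days 3 and 5 from day 0 and any other with an unadjusted edgeR p under 0.05. Of 261 alternative values of these 29, 222 kept their direction and side of the threshold, 28 lost a call, 10 gained one and 1 reversed. The reversal was that of Cdkn2c on day 3, which is -0.20, was 0.0055 without WT and -0.36 without Per2KO, and was not called in any of these. Of 369 alternative values of the other 41 differences, some of which are also printed above, 24 in 15 differences changed sign and 4 gained a call. The largest value with a changed sign was 0.50 in size. Library totals as the scaling shifted the median of all genes by -0.11 on day 3 and -0.16 on day 5, and no called direction turned. Of 162 alternative shares with another gene length, 146 moved beyond their counting interval. Population and day were terms of every fit, and the labels give no replicate numbers for a further block. The WT depth limits low counts, such as the 40 counts of Rbl1 on day 5.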
